A study of Mus musculus with 19 samples.

Results

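Dbp, Tef, Hlf, Nfil3, Bhlhe40, Bhlhe41 and Ciart are transcription factors and cofactors through which the circadian clock acts on other genes, and they are described here across the 3 groups of a mouse kidney study. They were taken by gene symbol from the deposited count table, where they are 7 of 55536 genes, and all 7 had enough reads to be tested. The set was chosen by shared role in the clock, with the group differences of its genes in these same libraries already known. RNA was sequenced from whole kidney in 19 libraries. There were 8 libraries of obstructed kidneys given zalfermin, 7 of obstructed kidneys given vehicle and 4 of healthy kidneys. Zalfermin is, by the series title, a long-acting analogue of the hormone FGF21. The series design names the model UUO, the usual short form of unilateral ureteral obstruction, in which a ureter is tied off and the kidney scars. The sample labels differ from the design in 3 ways. They write MASH as the condition of the obstructed mice, they give the drug as a code that is taken here to be zalfermin, and they write untreated for the healthy mice, which the design lists as vehicle. The sources used here do not give strain, age, sex, dose, duration of treatment or the clock time at which kidneys were taken. A difference in the level of a rhythmic gene and a difference in collection time between groups therefore cannot be told apart.

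In mammals, CLOCK and BMAL1 (encoded by Arntl) form a dimer that binds E-box elements and switches on its own repressors as well as output genes. DBP, TEF and HLF are PAR bZIP factors, which activate genes through D-box elements, and NFIL3 (also called E4BP4) represses through the same elements. BHLHE40 and BHLHE41 (DEC1 and DEC2) and CIART (CHRONO) repress CLOCK and BMAL1 at E-boxes. Nfil3 and Arntl are themselves repressed by REV-ERBα and REV-ERBβ (Nr1d1 and Nr1d2) through RORE elements, so that in many mouse tissues Dbp peaks at about the time when Nfil3 and Arntl are low. In the kidney the PAR bZIP factors have been linked to water and ion transport, and mice that lack all of them have altered blood pressure and drug metabolism.

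The promoters are shown for the letters of E-box, D-box and RORE elements that occur in them. Windows were the 250 bases before each annotated start in RefSeq (GRCm38.p6), and 6 of the 7 genes had an entry, with 7 windows. Bhlhe40 had none in the table. Both strands were searched for the E-box CACGTG, the D-box TTATGTAA or TTACGTAA and the RORE TAGGTCA or TGGGTCA, and matches are in capitals in the lines that follow. Each sequence is written 5′ to 3′ on the strand of its gene.
Ciart (chr3:95882229-95882478, minus strand): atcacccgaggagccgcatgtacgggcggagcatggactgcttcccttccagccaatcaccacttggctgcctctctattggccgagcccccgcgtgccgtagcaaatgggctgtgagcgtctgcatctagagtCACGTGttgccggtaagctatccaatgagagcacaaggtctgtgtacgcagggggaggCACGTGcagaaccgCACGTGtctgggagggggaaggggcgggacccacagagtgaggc
Bhlhe41 (chr6:145865421-145865670, minus strand): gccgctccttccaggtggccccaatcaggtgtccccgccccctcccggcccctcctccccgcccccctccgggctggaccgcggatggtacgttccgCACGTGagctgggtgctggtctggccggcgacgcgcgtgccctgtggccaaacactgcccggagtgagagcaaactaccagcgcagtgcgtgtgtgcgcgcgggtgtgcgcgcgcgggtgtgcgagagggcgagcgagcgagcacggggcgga
Tef, the downstream of its 2 starts (chr15:81811164-81811413, plus strand): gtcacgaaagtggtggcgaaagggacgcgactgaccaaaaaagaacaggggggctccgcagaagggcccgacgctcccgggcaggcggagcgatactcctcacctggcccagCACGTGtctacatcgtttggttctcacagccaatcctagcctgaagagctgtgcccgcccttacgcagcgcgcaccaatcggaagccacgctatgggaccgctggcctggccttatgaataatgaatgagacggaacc
Nfil3 (chr13:52981040-52981289, minus strand): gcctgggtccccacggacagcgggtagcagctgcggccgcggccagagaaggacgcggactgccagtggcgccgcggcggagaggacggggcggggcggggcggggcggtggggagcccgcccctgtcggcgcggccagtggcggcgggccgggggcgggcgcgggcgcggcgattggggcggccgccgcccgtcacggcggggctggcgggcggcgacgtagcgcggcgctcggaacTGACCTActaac
Per3 (chr4:151044666-151044915, minus strand), a core clock gene shown for its D-boxes: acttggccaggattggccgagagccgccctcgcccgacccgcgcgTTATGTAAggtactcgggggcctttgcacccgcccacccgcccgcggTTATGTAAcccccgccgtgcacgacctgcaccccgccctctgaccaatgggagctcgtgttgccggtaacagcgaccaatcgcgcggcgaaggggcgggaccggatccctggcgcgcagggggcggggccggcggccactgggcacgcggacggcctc

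Ciart had 3 E-boxes in its window, the nearest 44 to 39 bases before the start. Of 32851 promoter windows, 20 (0.0609%) had 3 or more E-boxes and 6.02% had at least 1. Bhlhe41 had 1 E-box and Tef had 1 in each of its 2 windows. Nfil3 had 1 RORE, 12 to 6 bases before its start, a motif present in 5.38% of windows. No window of the 6 genes held the D-box letters, which occurred in 0.931% of all windows, whereas Per3 had 2. The windows of Dbp and Hlf held none of these motifs. A match describes the letters of the window and was not measured as a binding site in these kidneys.

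Libraries held 12209122 to 14844103 reads. Levels are CPM, read counts scaled to a common library size with TMM factors, given as mean ± SD over 8 zalfermin, 7 vehicle and 4 healthy libraries unless stated otherwise. A gene is called here when its adjusted p (edgeR's quasi-likelihood F test, Benjamini-Hochberg over 16026 tested genes) was under 0.05. The labels number each library without stating that a number is an animal, so p-values measure the spread between these libraries only. In bulk tissue, fewer cells of a type and less RNA per cell cannot be told apart. Vehicle replicate 6 stood apart from the other vehicle libraries, with 19788 genes detected and a mitochondrial share of 1.10%. Values without this library are given where a call of a named gene changed. Healthy libraries had a mitochondrial share of 8.77 to 10.2%, against 2.95 to 4.25% with zalfermin and 1.10 to 4.21% with vehicle. TMM factors were 0.751 to 0.843 in healthy, 1.02 to 1.08 in zalfermin and 1.02 to 1.11 in vehicle libraries. Comparisons with healthy kidneys rest on this scaling. Because the 7 genes were proposed with results of these data in view, their levels, changes and calls are a description, and no p is given for them.

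Against vehicle, 3 of 7 were called in zalfermin kidneys: Dbp and Bhlhe41 were higher and Nfil3 was lower. Of all 16026 tested genes, 1.81% were called in that comparison, 0.867% higher and 0.942% lower. Its groups did not overlap for Bhlhe41 (higher) and Nfil3 (lower), and for 0.605% of all tested genes (0.349% higher, 0.256% lower). In vehicle kidneys against healthy ones 4 of 7 were called, Bhlhe40 and Bhlhe41 higher and Tef and Hlf lower, where 64.8% of all tested genes were called (36.2% higher, 28.6% lower). These 4 genes were also those without overlap, as were 44.2% of all tested genes (24.7% higher, 19.5% lower). In zalfermin kidneys against healthy ones 6 of 7 were called, with Tef the exception, where 64.3% of all tested genes were called (37.3% higher, 27.0% lower). There was no overlap for Dbp, Bhlhe40 and Bhlhe41 (higher) and Hlf (lower), and for 51.2% of all tested genes (29.4% higher, 21.7% lower). Counts near these shares are not a result about the 7 genes. The same shares apply to the counts of core clock genes, linked genes, targets and markers given further on. The median log2 fold change of the 7 genes was 0.60 for zalfermin over vehicle, against 0.01 over all tested genes. It was 0.24 for vehicle over healthy, against 0.09 over all. It was 1.57 for zalfermin over healthy, against 0.13 over all. The first 2 comparisons share the vehicle libraries, and the last shares libraries with each of them.

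**Figure D1:**
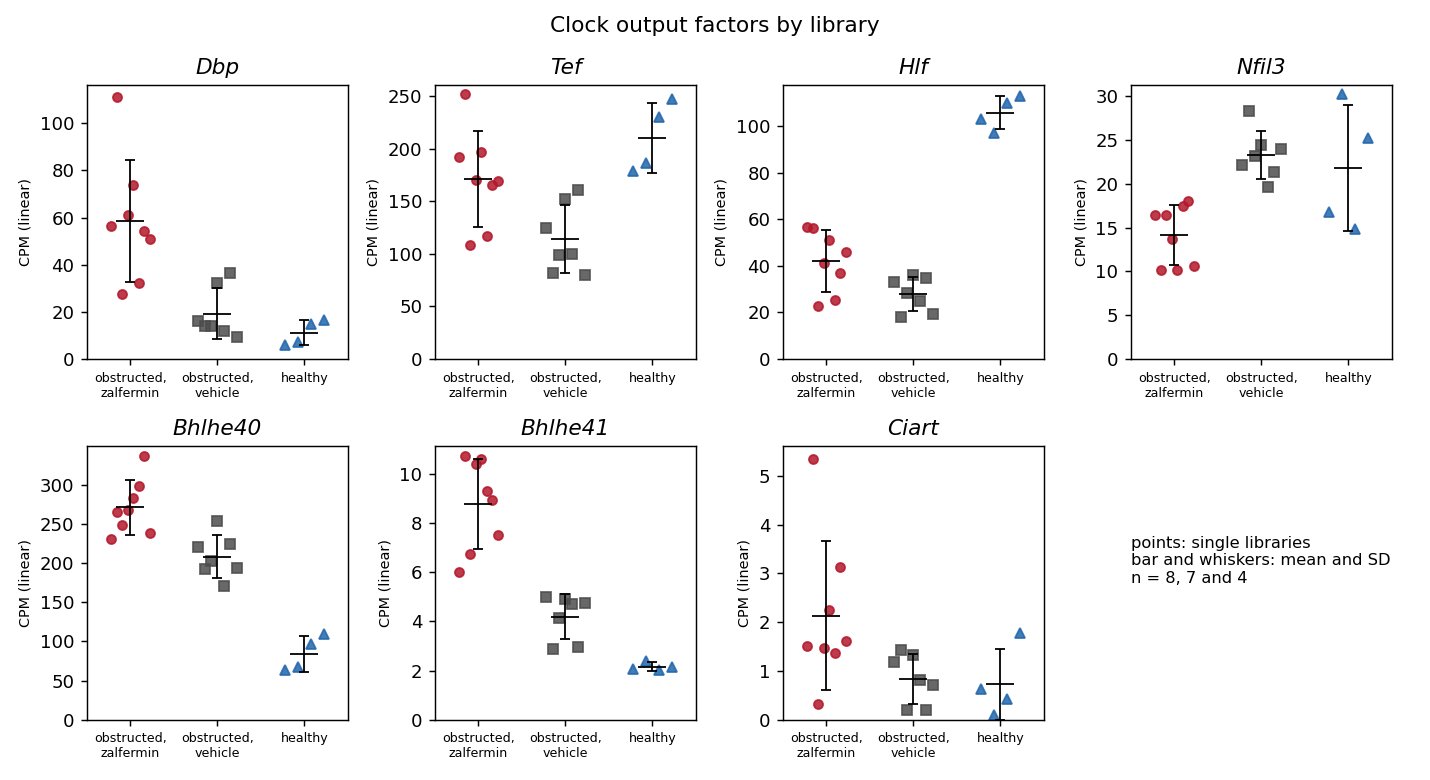
Level of each gene in every library, in CPM on a linear axis; points are libraries and bars are mean and SD over 8 zalfermin, 7 vehicle and 4 healthy libraries. Nfil3 in all 8 zalfermin libraries lies under the lowest vehicle library, Bhlhe41 in all 8 lies above the highest, and Hlf stands apart in the healthy libraries.

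Dbp, which activates D-box genes and is among the most strongly rhythmic transcripts in mouse tissues, had 56.4, 111, 27.7, 61.2, 74.0, 32.4, 54.5 and 50.8 CPM in zalfermin libraries, against 16.3, 13.9, 13.9, 32.4, 11.9, 36.6 and 9.20 CPM in vehicle libraries and 5.96, 7.10, 15 and 16.5 CPM in healthy ones. All 8 zalfermin libraries lay above the vehicle median and 6 of 8 above the highest vehicle library; zalfermin replicates 3 and 6 were the lowest of their group, and vehicle replicates 4 and 6 the highest of theirs. The group means were 58.5 ± 26.0 CPM with zalfermin, 19.2 ± 10.8 CPM with vehicle and 11.1 ± 5.38 CPM in healthy kidneys. The fitted change of zalfermin over vehicle was 3.05-fold, a log2 fold change of 1.61 (SE 0.314), which was called. Vehicle over healthy came to 0.78 (SE 0.406), which was not called, with a 95% interval of -0.06 to 1.63. Zalfermin over healthy was 2.39 (SE 0.417), and these groups did not overlap. Dbp lies at chr7:45705088-45710203 on the plus strand (GRCm38, ENSMUSG00000059824). Its exons share 539 of 2993 bases with Sphk2 on the opposite strand, and the sources used here do not give the strand setting of the counting. Sphk2 itself had 45.9 ± 4.34 CPM in zalfermin, 45.6 ± 8.45 CPM in vehicle and 68.6 ± 8.28 CPM in healthy libraries. The log2 fold change of Sphk2 was 0.01 for zalfermin over vehicle and -0.59 for vehicle over healthy. How reads in the shared bases were assigned cannot be told from these gene totals. Exons of Bhlhe41 (1280 of 6720 bases), Tef (193 of 7867) and Bhlhe40 (118 of 4705) also overlap genes on the opposite strand, so the same limit holds for them.

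Tef, the second PAR bZIP activator (chr15:81802421-81826863, plus strand, ENSMUSG00000022389), had 192, 252, 108, 170, 197, 117, 165 and 169 CPM with zalfermin. It had 125, 82.0, 99.2, 152, 99.4, 161 and 80.3 CPM with vehicle and 179, 186, 230 and 247 CPM in healthy kidneys. Every vehicle library was below every healthy one, and 6 of 8 zalfermin libraries were above the highest vehicle library. Replicates 3 and 6 were again the lowest of the zalfermin group. The means were 171 ± 45.6 CPM with zalfermin, 114 ± 32.7 CPM with vehicle and 211 ± 33.0 CPM in healthy kidneys. Vehicle over healthy was called, with a log2 fold change of -0.88 (SE 0.202). Zalfermin over vehicle was 0.58 (SE 0.172) and was not called, although DESeq2 (0.57), limma's voom (0.68) and the edgeR fits without vehicle replicate 6 (0.68), zalfermin replicate 3 (0.66) or zalfermin replicate 6 (0.65) each called it. Zalfermin over healthy was -0.30, not called.

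Hlf, the third activator (chr11:90336536-90390895, minus strand, ENSMUSG00000003949), had the deepest deficit with obstruction among the 7 genes. It had 56.9, 56.5, 22.8, 41.4, 51.3, 25.3, 36.8 and 46.1 CPM in zalfermin libraries, against 33.2, 18.1, 28.4, 36.2, 25.0, 34.6 and 19.2 CPM in vehicle libraries and 103, 97.2, 110 and 113 CPM in healthy ones. No obstructed library of either treatment reached the healthy range. The means were 42.2 ± 13.2 CPM with zalfermin, 27.8 ± 7.33 CPM with vehicle and 106 ± 7.08 CPM in healthy kidneys. The log2 fold change was -1.93 (SE 0.214) for vehicle over healthy and -1.33 (SE 0.206) for zalfermin over healthy, both called. Between the treatments, 6 of 8 zalfermin libraries were above the highest vehicle library and replicates 3 and 6 were within the vehicle range. That log2 fold change was 0.60 (SE 0.185) and was not called; DESeq2 (0.59) and the fits without zalfermin replicate 3 (0.69) or 6 (0.68) called it. Per kilobase of exon, the 3 activators stood at 19.6 (Dbp), 21.8 (Tef) and 6.31 (Hlf) mean CPM with zalfermin, at 6.40, 14.5 and 4.16 with vehicle and at 3.72, 26.8 and 15.8 in healthy kidneys, in the same gene order. On that scale Dbp was the lowest of the 3 in healthy kidneys and was near Tef with zalfermin.

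Nfil3, the D-box repressor (chr13:52967209-52981073, minus strand, ENSMUSG00000056749), is also known for its part in the development of natural killer cells. It had 16.5, 10.2, 16.4, 13.7, 10.2, 17.5, 18.1 and 10.6 CPM with zalfermin, against 22.2, 28.3, 23.2, 24.4, 19.6, 21.4 and 24.0 CPM with vehicle and 16.8, 30.3, 14.9 and 25.3 CPM in healthy kidneys. All 8 zalfermin libraries were below the lowest vehicle library. The 4 healthy libraries ran from 14.9 CPM, inside the zalfermin range, to 30.3 CPM, above the highest vehicle library. The means were 14.1 ± 3.39 CPM with zalfermin, 23.3 ± 2.74 CPM with vehicle and 21.8 ± 7.22 CPM in healthy kidneys. Zalfermin over vehicle was called at a log2 fold change of -0.72 (SE 0.154), a fold of 0.608. Vehicle over healthy was 0.09 (SE 0.187), not called, with a 95% interval of -0.29 to 0.48. Zalfermin over healthy was -0.63 (SE 0.182), a call that was lost without healthy replicate 2, at -0.42. Markers of T and natural killer cells, which carry Nfil3, summed to 11.3 to 32.4 CPM with zalfermin (median 15.6), 18.9 to 31.3 CPM with vehicle (median 22.2) and 4.45 to 7.01 CPM in healthy kidneys. The sum in 7 of 8 zalfermin libraries was at most 18.4 CPM, under every vehicle library, and zalfermin replicate 6 alone gave 32.4 CPM. All 9 markers had a log2 fold change under 0 for zalfermin over vehicle, with a median of -0.59 beside the -0.72 of Nfil3, and 0 of 9 were called. For vehicle over healthy all 9 markers were called higher, with a median of 1.87 beside the uncalled 0.09 of Nfil3. Their part in the level of Nfil3 was not tested. In mouse liver NFIL3 is known to repress Fgf21. Fgf21 itself was close to absent here, with 2 reads over the 8 zalfermin libraries, 20 reads over the 7 vehicle libraries and 0 in the healthy ones. It did not pass the read filter and was not among the tested genes. Its mean CPM was 0.0175 with zalfermin and 0.189 with vehicle. Vehicle replicates 4 and 6 held 5 and 7 of the 20 vehicle reads. A two-sided exact permutation test of that difference gave p = 0.0124, for this gene alone and unadjusted. The test was not repeated without vehicle replicate 6, so no conclusion is drawn from it.

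The proteins of Dbp and Nfil3 act on the same elements in opposite directions. Ratios of RNA reads were therefore also taken within each library, where scaling cancels. Dbp was already called higher, and Nfil3 and Arntl lower, with zalfermin than with vehicle. The ratios restate those changes and add no support to them. The ratio of Dbp reads to Nfil3 reads had a median of 3.94 with zalfermin (1.70 to 10.9), 0.606 with vehicle (0.383 to 1.71) and 0.502 in healthy kidneys (0.235 to 1.01). The lowest zalfermin ratio, 1.70, fell just inside the vehicle range, and the highest vehicle ratio was that of replicate 6. The ratio of Dbp to Arntl reads had a median of 5.83 with zalfermin (1.47 to 24.2), 0.642 with vehicle (0.359 to 2.25) and 0.314 in healthy kidneys (0.118 to 0.477). Every healthy library had fewer Dbp than Arntl reads and every zalfermin library had more.

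**Figure D2:**
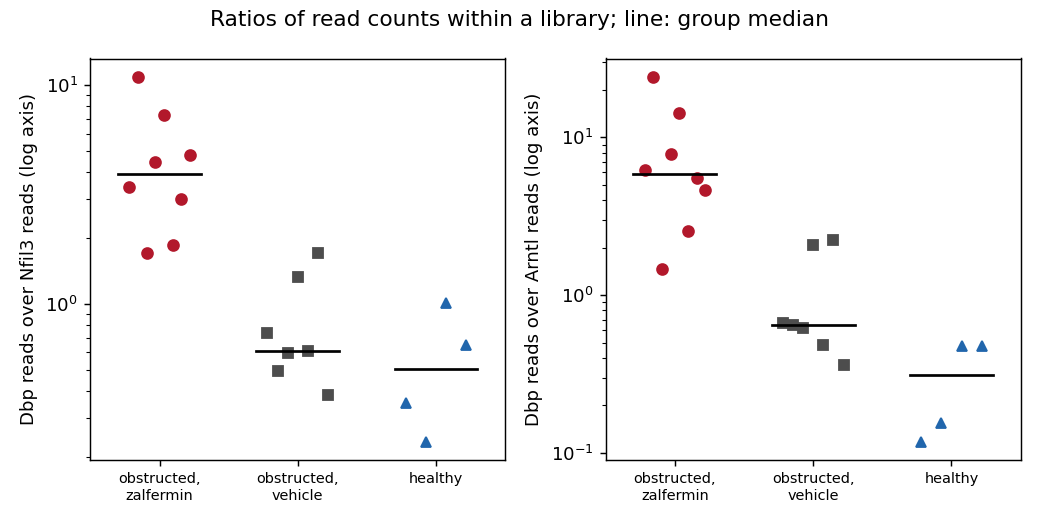
Reads of Dbp over reads of Nfil3 (left) and over reads of Arntl (right) in each library, on log axes; lines are group medians of 8 zalfermin, 7 vehicle and 4 healthy libraries. The median Dbp to Nfil3 ratio is 3.94 with zalfermin, 0.606 with vehicle and 0.502 in healthy kidneys.

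Bhlhe40 (DEC1, chr6:108660629-108666925, plus strand, ENSMUSG00000030103) is a repressor that is induced by hypoxia and by immune activation as well as by the clock. It had 231, 265, 248, 268, 283, 298, 336 and 238 CPM with zalfermin, against 220, 192, 202, 254, 171, 224 and 194 CPM with vehicle and 63.1, 67.4, 97.0 and 110 CPM in healthy kidneys. All obstructed libraries were above all healthy ones, and 5 of 8 zalfermin libraries exceeded the highest vehicle library. The means were 271 ± 34.7 CPM with zalfermin, 208 ± 27.0 CPM with vehicle and 84.4 ± 22.9 CPM in healthy kidneys. The log2 fold change was 1.30 (SE 0.146) for vehicle over healthy and 1.68 (SE 0.147) for zalfermin over healthy, both called. Zalfermin over vehicle was 0.38 (SE 0.114), not called by edgeR but called by DESeq2 (0.37) and voom (0.43). Macrophage markers, in a cell type that also carries Bhlhe40, summed to 879 to 1280 CPM with zalfermin, 1060 to 1400 CPM with vehicle and 153 to 184 CPM in healthy kidneys. Of these 10 markers, 10 were called higher in vehicle than in healthy kidneys and 0 were called between the treatments, where their median log2 fold change was -0.21, and their part in the level of Bhlhe40 was not tested.

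Bhlhe41 (DEC2, chr6:145858243-145865558, minus strand, ENSMUSG00000030256), the paralogue, was the one gene of the 7 whose 3 groups were each fully separated from the others. It had 6.01, 10.7, 6.75, 10.4, 10.6, 9.31, 8.92 and 7.51 CPM with zalfermin, against 4.98, 2.87, 4.14, 4.90, 4.72, 2.95 and 4.76 CPM with vehicle and 2.05, 2.40, 2.02 and 2.16 CPM in healthy kidneys. The means were 8.77 ± 1.82 CPM with zalfermin, 4.19 ± 0.914 CPM with vehicle and 2.16 ± 0.171 CPM in healthy kidneys. The log2 fold changes were 1.07 (SE 0.154) for zalfermin over vehicle, 0.95 (SE 0.215) for vehicle over healthy and 2.02 (SE 0.211) for zalfermin over healthy, all called.  Per kilobase of exon, Bhlhe41 stood at 1.31 mean CPM with zalfermin, 0.623 with vehicle and 0.321 in healthy kidneys, against 57.6, 44.2 and 17.9 for Bhlhe40 in the same groups. The ratio of Bhlhe41 to Bhlhe40 reads ranged from 0.0260 to 0.0404 with zalfermin, from 0.0131 to 0.0276 with vehicle and from 0.0196 to 0.0356 in healthy kidneys.

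Ciart, the E-box repressor with 3 E-boxes in its window (chr3:95878503-95882251, minus strand, ENSMUSG00000038550), was near the limit of detection, with 241 reads over the 8 zalfermin, 88 over the 7 vehicle and 31 over the 4 healthy libraries. Its levels were 1.52, 5.35, 0.331, 1.47, 2.25, 1.37, 3.14 and 1.61 CPM with zalfermin, against 1.19, 1.44, 0.191, 1.33, 0.820, 0.201 and 0.707 CPM with vehicle and 0.623, 0.0888, 0.422 and 1.77 CPM in healthy kidneys. Replicate 2 was the highest and replicate 3 the lowest of the zalfermin group, as for Dbp. The log2 fold change of zalfermin over vehicle was 1.34 (SE 0.495), not called, with a 95% interval of 0.31 to 2.36. Vehicle over healthy was 0.24 (SE 0.685), not called. Zalfermin over healthy, 1.57 (SE 0.649), was called but lost its call with RLE scaling and without zalfermin replicate 2 or 7 or healthy replicate 1, 2 or 3.

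**Figure D3:**
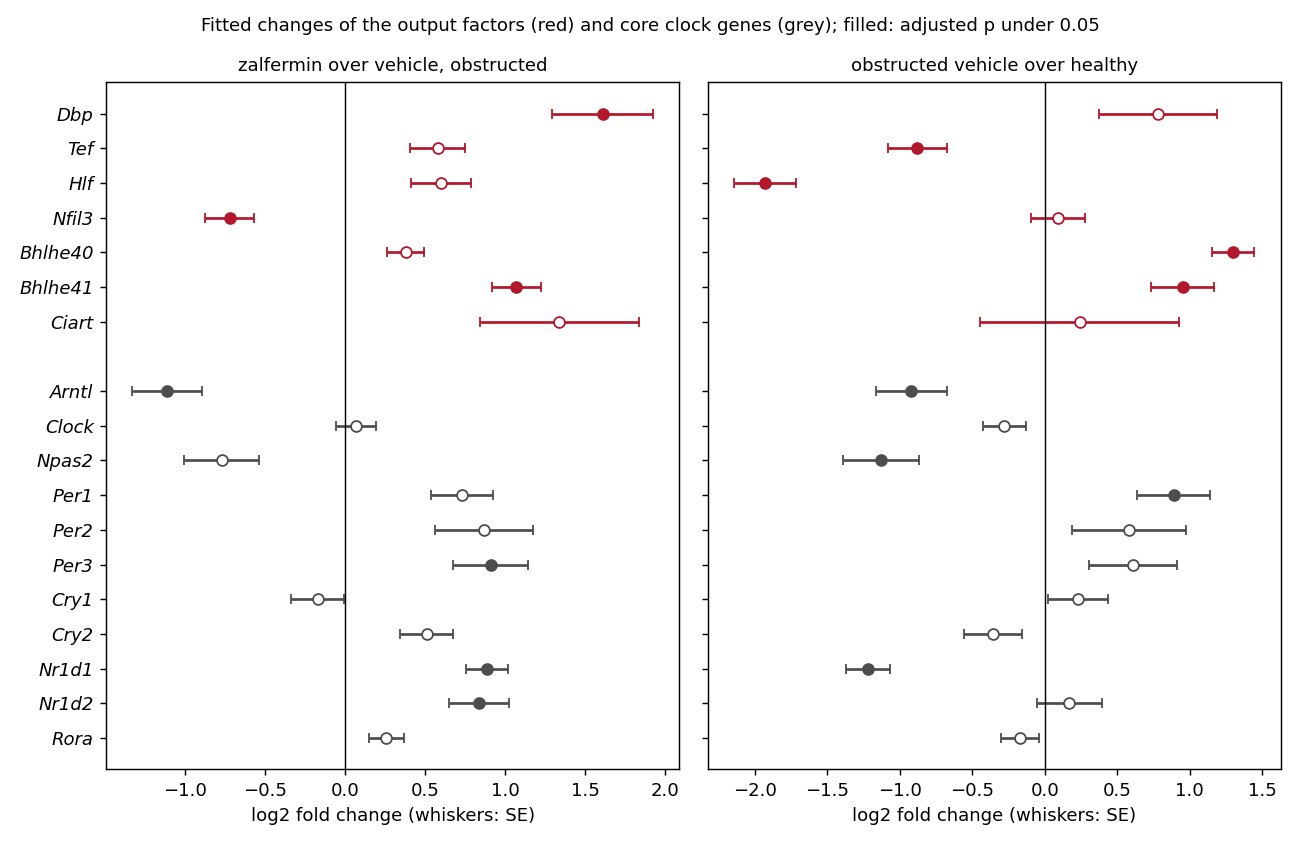
Fitted log2 fold changes with their standard errors for the 7 output factors (red) and 11 core clock genes (grey), for zalfermin over vehicle (left) and vehicle over healthy (right); filled points are called. For zalfermin over vehicle Dbp stands highest at 1.61 and Arntl lowest at -1.11; for vehicle over healthy Hlf stands lowest at -1.93.

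The core clock genes give the setting of these factors. Of 11 tested, 3 were called higher and 1 lower in zalfermin kidneys than in vehicle kidneys, with a median log2 fold change of 0.51. Over all tested genes 1.81% were called there, and the median was 0.01. Nr1d1, which encodes the RORE repressor REV-ERBα, averaged 65.8 ± 11.1 CPM with zalfermin and 35.4 ± 5.71 CPM with vehicle, and the groups did not overlap (log2 fold change 0.89, SE 0.132, edgeR adjusted p = 0.00122). Its partner Nr1d2 (REV-ERBβ) changed by 0.84 (SE 0.187, edgeR adjusted p = 0.0212), and this call was lost without vehicle replicate 2 (adjusted p = 0.0524), vehicle replicate 7 (adjusted p = 0.0514) or zalfermin replicate 2 (adjusted p = 0.0516). Per3, a period gene, changed by 0.91 (SE 0.237, edgeR adjusted p = 0.0498). The Per3 call was lost under RLE or upper-quartile scaling, the robust fit and the fit of both obstructed groups alone, and it held when one library was left out only for vehicle replicate 4 or 6 or zalfermin replicate 3 or 6; the highest adjusted p was 0.121, without zalfermin replicate 2. Arntl, which encodes BMAL1, averaged 9.91 ± 4.55 CPM with zalfermin and 21.5 ± 4.03 CPM with vehicle, and 7 of 8 zalfermin libraries were below the lowest vehicle library (log2 fold change -1.11, SE 0.217, edgeR adjusted p = 0.00895). Its level in healthy kidneys was 40.7 ± 8.96 CPM. The other 7 genes were not called, and Clock, Cry1 and Rora lay between -0.17 and 0.26. Per1 stood at 0.73, and was called by DESeq2 (adjusted p = 0.0154), by voom (adjusted p = 0.0196), with no filter and without vehicle replicate 1 or 6 or zalfermin replicate 3 or 6. Cry2 stood at 0.51, and was called by voom (adjusted p = 0.00714) and by edgeR without vehicle replicate 6 (0.64, adjusted p = 0.0207). Per2 stood at 0.87, called by voom (adjusted p = 0.00909) and by edgeR without vehicle replicate 4 (adjusted p = 0.0422). Npas2 stood at -0.77, called by DESeq2 (adjusted p = 0.0306), by voom (adjusted p = 0.0161) and by edgeR without zalfermin replicate 3 (adjusted p = 0.0228). For vehicle over healthy, Per1 was called higher (0.89, edgeR adjusted p = 0.00378) and Nr1d1 (-1.22, adjusted p = 3.71e-07), Npas2 (-1.13, adjusted p = 0.000702) and Arntl (-0.92, adjusted p = 0.00256) were called lower. Of all tested genes 64.8% were called in that comparison (36.2% higher, 28.6% lower). Without vehicle replicate 6, Cry2 (-0.55, edgeR adjusted p = 0.0089) and Clock (-0.23, adjusted p = 0.0475) were called lower too. Cry2 was also called lower there by DESeq2 and voom, Clock by DESeq2, with RLE scaling and without healthy replicate 2, and Per2 was called higher without healthy replicate 4. Arntl was thus lowest with zalfermin and highest in healthy kidneys. For zalfermin over healthy, 4 of the 11 genes were called higher (Per1, Per2, Per3 and Nr1d2) and 2 lower (Arntl and Npas2). Of all tested genes 64.3% were called there (37.3% higher, 27.0% lower), so these counts are not a result about the core clock genes. Nr1d1 stood at -0.33 there, not called, but was called lower with RLE scaling (-0.42, edgeR adjusted p = 0.0177), by DESeq2 (adjusted p = 0.015), by voom (adjusted p = 0.0067), in the fit of zalfermin and healthy libraries alone (adjusted p = 0.0259) and without zalfermin replicate 2 or 8 or healthy replicate 4. Clock was called lower in that fit of 2 groups (-0.28, edgeR adjusted p = 0.0226). Nr1d1 was at 65.8 ± 11.1 CPM with zalfermin, 35.4 ± 5.71 CPM with vehicle and 82.4 ± 22.9 CPM in healthy kidneys.

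How the factors varied between libraries of one group was examined next. The within-group SD of log2 CPM was 0.692 for Dbp, larger than that of 99.4% of the 500 tested genes nearest to it in level. It was 0.375 for Tef (96.4%), 0.417 for Hlf (96.2%), 0.331 for Nfil3 (87.4%) and 0.236 for Bhlhe40 (77.2%). Ciart had the largest SD, 1.04 (98.6%), and Bhlhe41 was unremarkable at 0.294 (37.8%). Hlf varied little in healthy kidneys, with an SD of 0.504 with zalfermin, 0.403 with vehicle and 0.0974 in healthy libraries.

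Within the zalfermin group the 3 PAR bZIP activators went up and down together. Over its 8 libraries, log2 levels of Dbp and Tef had Pearson's r = 0.98 (two-sided exact permutation p = 0.000372, adjusted over 21 pairs 0.00391) and Spearman's rho = 0.95 (exact p = 0.00114, adjusted 0.0240). Tef and Hlf had r = 0.95 (exact p = 0.000248, adjusted 0.00391) and rho = 0.90 (exact p = 0.00456, adjusted 0.0479). Dbp and Hlf had r = 0.88 (exact p = 0.00432, adjusted 0.0302), while their rho of 0.76 did not pass (exact p = 0.0368, adjusted 0.243). Without the 2 libraries farthest from the median of the first gene, r was 0.94 for Dbp and Tef, 0.96 for Tef and Hlf and 0.82 for Dbp and Hlf. These 3 of 21 pairs passed the threshold in the zalfermin group. The pair of Dbp and Ciart had r = 0.86 (exact permutation p = 0.0101, adjusted 0.0531) and rho = 0.71 (exact p = 0.0576, adjusted 0.243), but r was 0.42 without those 2 libraries. Dbp and Nfil3 had r = -0.68 (exact permutation p = 0.0756, adjusted 0.227) and rho = -0.60 (exact p = 0.132, adjusted 0.309).

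In the vehicle group no pair passed after adjustment over 21 pairs, and 5 had an unadjusted exact p under 0.05. Dbp and Tef had r = 0.93 (exact permutation p = 0.00238, adjusted 0.05, which is not under the threshold) and rho = 0.86 (exact p = 0.0238, adjusted 0.167), with r = 0.71 without the 2 farthest libraries and r = 0.89 without replicate 6. Tef and Hlf had r = 0.94 (exact permutation p = 0.00595, adjusted 0.0625) and rho = 0.89 (exact p = 0.0123, adjusted 0.129), with r = 0.96 without the 2 farthest and r = 0.95 without replicate 6. Bhlhe40 had r = 0.81 with Dbp (exact permutation p = 0.0260, adjusted 0.182) and rho = 0.79 (exact p = 0.0480, adjusted 0.252) in vehicle libraries, against r = 0.03 (exact permutation p = 0.948, adjusted 0.948) and rho = 0.05 (exact p = 0.935) in zalfermin libraries. In vehicle libraries r was 0.54 without the 2 farthest and 0.86 without replicate 6. Whether correlations differed between the groups was not tested.

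**Figure D4:**
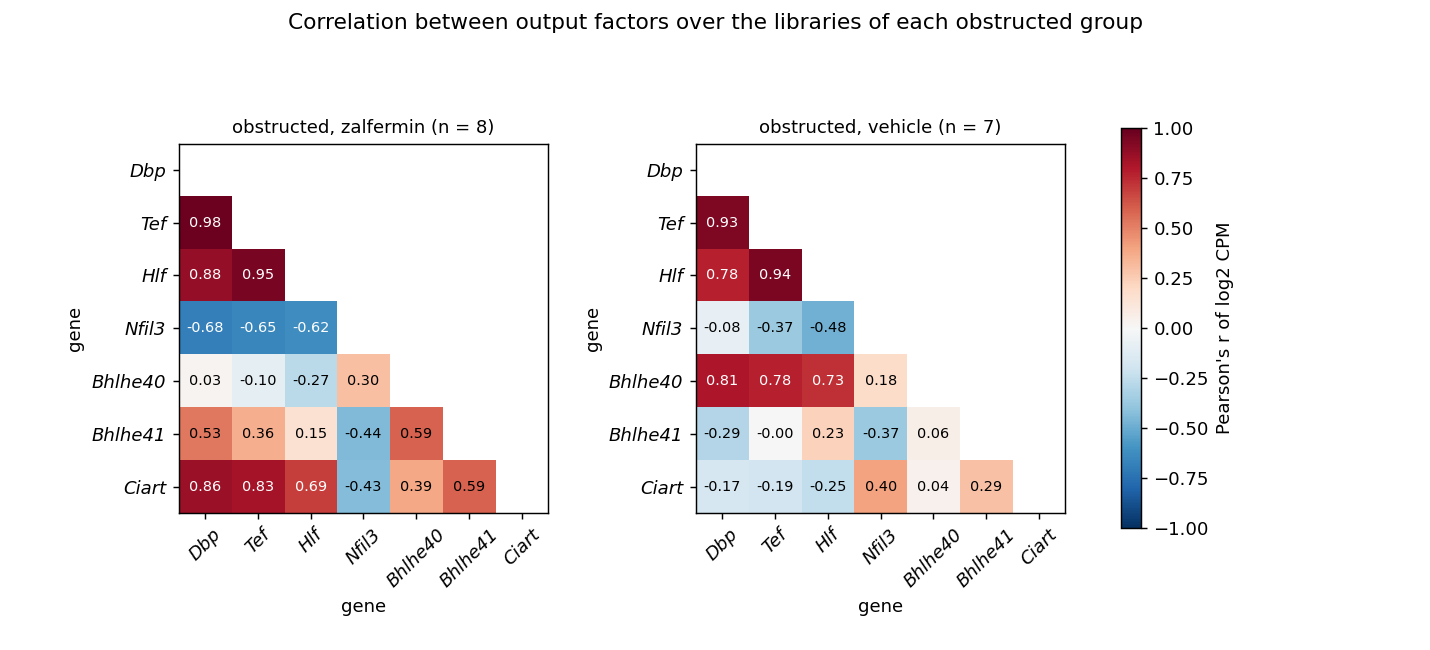
Pearson's r of log2 CPM for each pair of the 7 genes over the 8 zalfermin libraries (left) and the 7 vehicle libraries (right), from -1 (blue) to 1 (red). Dbp, Tef and Hlf form a positive block with zalfermin (0.88 to 0.98) and with vehicle (0.78 to 0.94), and Nfil3 is negative with each of them in the zalfermin panel.

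**Figure D5:**
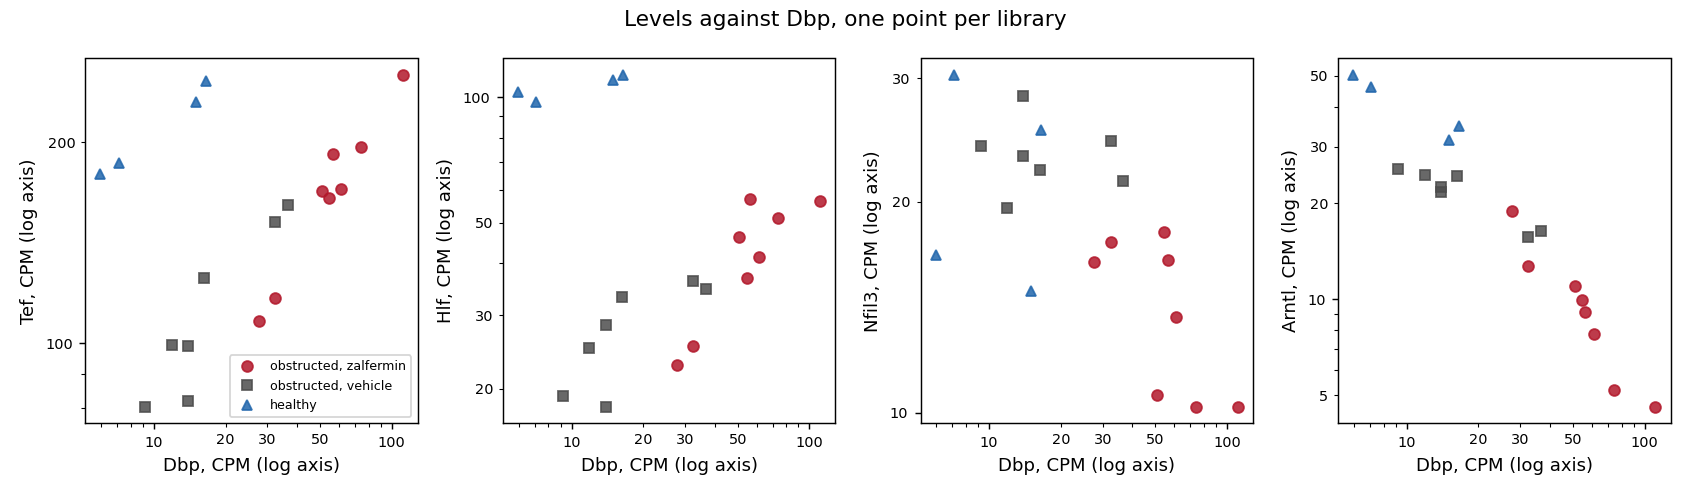
Levels of Tef, Hlf, Nfil3 and Arntl against Dbp in CPM, both axes logarithmic, with a point for each of 8 zalfermin, 7 vehicle and 4 healthy libraries. Within both obstructed groups Tef and Hlf are higher where Dbp is higher and Arntl is lower, and healthy libraries lie off that line for Tef and Hlf.

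The genes most like each factor were ranked over the 19 libraries after centring each group on its mean, among 11686 eligible genes; libraries share depth and tissue makeup, and these values are a description. Dbp was most like Tef (r = 0.93), Usp2 (0.91) and Per2 (0.86), of which Usp2 encodes a deubiquitinase that is itself a clock output and Per2 is a period gene. Tef was most like Dbp (0.93), Hlf (0.93) and Usp2 (0.91). Hlf was most like Atp1b1 (0.94), which encodes a subunit of the sodium pump of tubule cells, then Tef (0.93) and Slc28a1 (0.85), a nucleoside transporter gene. Among the genes most opposite to Dbp was Arntl, with r = -0.86 over all libraries, -0.96 within zalfermin and -0.95 within vehicle libraries; genes on the opposite side were looked at after the values were seen. Within groups, the r of these 9 pairs of Dbp, Tef and Hlf lay between 0.86 and 0.99 in zalfermin and between 0.74 and 0.97 in vehicle libraries. Nfil3 was most like Il1rn, the interleukin-1 receptor antagonist gene, Insyn1 and Fam57a (each 0.80). Those values were 0.85, 0.87 and 0.89 within zalfermin libraries, against 0.22, 0.36 and 0.34 within vehicle libraries. Bhlhe40 was most like Maff (0.84), a small Maf factor gene, Nol9 (0.80) and Cnot9 (0.78). Bhlhe41 was most like Ankrd29 (0.79), Rab6b (0.76) and Tnfaip3 (0.74), and Ciart was most like Ccnl2 (0.76), Gcnt2 (0.74) and Cxcl2 (0.74). Within groups the r of these last 9 pairs lay between 0.58 and 0.90 in zalfermin and between 0.56 and 0.93 in vehicle libraries. Without vehicle replicate 6 the list of 3 kept 1 gene for Tef, 1 for Bhlhe41 and 0 for Ciart.

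Genes linked to the PAR bZIP factors in mice act in vitamin B6, haem and drug metabolism and in water transport. Whether each depends on these factors was not tested. Of 9 tested, 2 were called higher in zalfermin than in vehicle kidneys and 0 lower, with a median of 0.19. Of all tested genes 0.867% were called higher there. Pdxk, which encodes pyridoxal kinase, ranged from 201 to 260 CPM with zalfermin and from 167 to 207 CPM with vehicle (log2 fold change 0.32, edgeR adjusted p = 0.0232), a call lost with upper-quartile scaling (adjusted p = 0.0553) and without zalfermin replicate 2 (adjusted p = 0.0543) or 4 (adjusted p = 0.0576). Aqp4, a basolateral water channel gene of the collecting duct, averaged 26.5 ± 9.41 CPM with zalfermin and 12.4 ± 2.55 CPM with vehicle (1.10, edgeR adjusted p = 0.0245), a call lost without vehicle replicate 2 (adjusted p = 0.0587) or 7 (adjusted p = 0.0611) or zalfermin replicate 5 (adjusted p = 0.0604). Between vehicle and healthy kidneys 8 of these 9 genes were called lower and Pdxk higher (0.57, edgeR adjusted p = 8e-06), with a median of -1.08. Of all tested genes 28.6% were called lower and 36.2% higher there. Aqp4 stood at -2.41 (edgeR adjusted p = 1.47e-07) and Avpr2, the vasopressin receptor gene, at -1.54 (adjusted p = 1.97e-06). Collecting duct markers summed to 208 to 392 CPM with zalfermin, 190 to 401 CPM with vehicle and 576 to 882 CPM in healthy kidneys, and 5 of 6 of them were called lower in vehicle than in healthy kidneys. Avpr2 and Aqp2 are in both this marker list and the list of linked genes, so the lists are not independent. The part of collecting duct cells in the levels of Aqp4 and Avpr2 was not tested.

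Of 4 further clock outputs, Wee1 and Nampt were called higher with zalfermin than with vehicle and 0 were called lower, with a median of 0.51. Of all tested genes 0.867% were called higher there. Wee1, a mitotic inhibitor gene with E-boxes, averaged 42.5 ± 7.42 CPM with zalfermin and 26.4 ± 4.57 CPM with vehicle (0.68, edgeR adjusted p = 0.00689). Nampt, the rate-limiting enzyme gene of NAD salvage, averaged 180 ± 18.7 CPM with zalfermin and 126 ± 31.1 CPM with vehicle (0.52, edgeR adjusted p = 0.0418). Its call was lost with RLE scaling, in the fit of both obstructed groups alone and without vehicle replicate 2, 5 or 7 or any zalfermin replicate other than 3 and 6, with an adjusted p of at most 0.0964. Between vehicle and healthy kidneys Noct (0.84) and Wee1 (0.91) were called higher, and Nampt (-0.77) and Usp2 (-0.96) lower. Of all tested genes 36.2% were called higher and 28.6% lower there.

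Hypoxia and glucocorticoids are known inputs to clock genes, Bhlhe40 and Bhlhe41 among them for hypoxia, and targets of both were counted. Of all tested genes 0.867% were called higher with zalfermin than with vehicle. Among 12 targets of hypoxia-inducible factors, 2 were called higher there and 0 lower, with a median of 0.09. These were Bnip3 (0.35, edgeR adjusted p = 0.0210, lost without vehicle replicate 7 at adjusted p = 0.0527) and Pdk1 (0.39, adjusted p = 0.0271, lost with upper-quartile scaling and without vehicle replicate 2 or 5 or zalfermin replicate 2, 5 or 7, with an adjusted p of at most 0.0636). Vehicle over healthy had 1 of these 12 called higher, Hk2 (4.57), and 7 lower, among them Bnip3 (-1.0) and Vegfa (-1.16), with a median of -0.69. Of all tested genes 36.2% were called higher and 28.6% lower there. Proximal tubule markers had a median of -1.93 in that comparison. The part of hypoxia in the levels of Bhlhe40 and Bhlhe41, and of tubule cells in the levels of these targets, was not tested. Among 7 targets of the glucocorticoid receptor, itself under daily control, 2 were called higher with zalfermin and 0 lower, with a median of 0.46. Zbtb16 averaged 17.9 ± 6.71 CPM with zalfermin and 5.29 ± 1.99 CPM with vehicle (1.76, edgeR adjusted p = 0.00371). Fkbp5 averaged 120 ± 24.0 CPM with zalfermin and 73.9 ± 25.8 CPM with vehicle (0.70, edgeR adjusted p = 0.0383), and its call held only without vehicle replicate 4 or 6 or zalfermin replicate 1, 3, 6 or 8 when one library was left out, with an adjusted p of at most 0.0939 otherwise, and was lost in the fit of both obstructed groups alone (adjusted p = 0.0515). Between vehicle and healthy kidneys Mt2 (1.52) and Tsc22d3 (0.44) were called higher and Dusp1 (-0.62) lower, the last lost without healthy replicate 4 (edgeR adjusted p = 0.0612).

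RNA levels of cell type markers differed between obstructed and healthy kidneys. Whether cell numbers or RNA per cell differed cannot be told from them. Proximal tubule markers summed to 5330 to 10700 CPM with zalfermin, 7390 to 13400 CPM with vehicle and 37400 to 52300 CPM in healthy kidneys, and 10 of 10 were called lower in vehicle than in healthy kidneys. Between the treatments their median log2 fold change was 0.15, with 1 called higher and 1 lower. Kap, the called marker that was lower and the one with most reads (both are named after their values were seen), averaged 3030 ± 1120 CPM with zalfermin and 5990 ± 1710 CPM with vehicle, and Slc5a12, the one that was higher, averaged 130 ± 46.0 CPM with zalfermin and 69.9 ± 21.5 CPM with vehicle. Fibroblast and myofibroblast markers summed to 1220 to 1970 CPM with zalfermin, 2020 to 3660 CPM with vehicle and 169 to 250 CPM in healthy kidneys. Of these 6, 6 were called higher in vehicle than in healthy kidneys and 2 were called lower with zalfermin than with vehicle. Markers of the thick ascending limb and distal tubule summed to 4030 to 5340 CPM with zalfermin, 3440 to 5690 CPM with vehicle and 9140 to 10700 CPM in healthy kidneys, and 0 of 6 were called between the treatments. No marker gene of these lists was at 0 in any group. The part of tissue makeup in the levels of the 7 genes was not tested.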

How the data were processed

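RNA-seq of whole mouse kidney was analysed in 19 libraries grouped by their labels. Per the labels' protocols, RNA was extracted with NucleoSpin kits and libraries were made with the NEBNext Ultra II Directional kit for a NextSeq; per the submitters' processing notes, reads were aligned with STAR 2.7.0f to GRCm38. The sources used here do not give the counting program, strand setting or annotation. The deposited values are the authors' raw read counts per gene.

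Genes were kept with filterByExpr (minimum count 10, minimum total 15), scaled by TMM and tested with edgeR 4.0.16 (R 4.3.3) in one quasi-likelihood fit of the 3 groups; 39510 genes with 0.115% of counts were not tested. Coordinates and exon lengths came from GENCODE M21 (GRCm38) and promoters from RefSeq. Log2 CPM for correlations used a prior count of 2. Alternatives were DESeq2 1.42.0, limma 3.58.1 (voom with quality weights), scaling by RLE or the upper quartile, testing all genes or those reaching 1 CPM in 4 libraries, a robust fit, 2-group fits and leaving out each library.

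All 7 genes are named. For each, the 3 genes of highest group-centred r (mean of at least 5 CPM) are named, and for each further list the 2 called genes of smallest p per direction and comparison. A further core clock gene is not reported here. The 7 genes, the lists and the tests were chosen with earlier results of these data known.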

Additional observations from a re-analysis of the deposited data

Results flagged for a closer look

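None of the 7 output factors had a library flagged by Dixon's test for a single outlying value. In groups this small the test has little power, and high libraries can hide each other. Dbp in vehicle replicates 4 and 6, at 32.4 and 36.6 CPM against a group median of 13.9 CPM, was not flagged. Among the 54 sets of a gene and a group that were looked at (the 7 factors and 11 core clock genes in 3 groups), 5 had a library whose gap to its nearest neighbour passed Dixon's 95% critical value, in 4 libraries, and chance alone flags about 5% of such sets. Vehicle replicate 6, the library with the fewest detected genes, was the lowest of its group for Clock, at 42.1 CPM, and for Rora, at 44.1 CPM. Zalfermin replicate 7 was the highest of its group for Cry1, at 11.5 CPM. Healthy replicate 1 was the highest of its group for Per1, at 18.6 CPM, and healthy replicate 4 for Per2, at 16.8 CPM.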

How the results depend on the processing

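The calls of Dbp, Nfil3 and Bhlhe41 for zalfermin over vehicle held under every alternative listed for the processing, leave-one-out fits included. The number of the 7 factors called there was 3, against 6 with DESeq2 and 5 with voom, and 3 to 5 with one library left out (5 without zalfermin replicate 3 or 6). All genes called there were 290, against 602 with DESeq2, 1148 with voom and 153 to 517 with one library left out. Counts lower by more than 1.5 times came without vehicle replicate 2 (179) or 7 (157) or zalfermin replicate 2 (153), 4 (162) or 5 (155), and the highest, 517, without vehicle replicate 6. Core clock genes called were 4, against 8 with voom and 2 to 6 with one library left out (2 without vehicle replicate 2 or 7 or zalfermin replicate 2). For vehicle over healthy, leave-one-out fits gave 9726 to 11221 genes, 4 to 4 factors and 4 to 6 core clock genes; for zalfermin over healthy they gave 9533 to 10169 genes, 4 to 6 factors and 6 to 7 core clock genes.

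Reversed directions were all of uncalled values. Cry1 for zalfermin over healthy was -0.03 with RLE and with DESeq2, and ranged from -0.04 to 0.13 with one library left out (-0.01 without healthy replicate 3); Rora there was -0.01 with RLE and DESeq2. For zalfermin over vehicle, Clock was -0.05 with voom and ranged from -0.05 (without vehicle replicate 6) to 0.12 with one library left out, and Cry1 was 0.02 with voom. For vehicle over healthy, Nfil3 ranged from -0.05 to 0.29 and was -0.01 without healthy replicate 1, and Ciart ranged from -0.13 to 1.13. Without vehicle replicate 6, r within vehicle libraries was 0.17 for Dbp with Nfil3, 0.17 with Bhlhe41 and 0.37 with Ciart, 0.55 for Tef with Bhlhe41, 0.26 for Tef with Ciart and -0.11 for Bhlhe41 with Ciart. The cause of these shifts was not tested. No paired analysis was possible because the labels give no replicate numbers shared between groups. Depth limits Ciart most, with 10 or more reads in 7 of 8 zalfermin, 5 of 7 vehicle and 1 of 4 healthy libraries.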
